A study of Capra hircus with 20 samples.

Results

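FOXO1, FOXO3, FOXO4 and FOXO6 are the forkhead transcription factors of the O class. Their mRNA was measured in cultured goat cells labelled preadipocytes and, after induction, adipocytes. The members were taken by symbol from the deposited mRNA table, which held 4 such genes with 5 transcripts among 20587 symbols and 43766 mRNA transcripts. FOXO1, FOXO3 and FOXO4 had 1 transcript each and FOXO6 had 2. The values below are sums over the transcripts of a symbol in FPKM, fragments scaled to the length of the transcript and to the fragments of the library. This is a level per length and allows genes to be set side by side.

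The study compared intramuscular with subcutaneous cells before and after differentiation. The donors were 5 male Jianzhou Daer goats, 7 days of age and without genetic change, whose longissimus dorsi muscle or subcutaneous fat gave the cells used at passage 3. The groups were intramuscular preadipocytes (IMPA), intramuscular adipocytes (IMA), subcutaneous preadipocytes (SPA) and subcutaneous adipocytes (SA), with 5 libraries each. Preadipocytes were harvested at day 0 and adipocytes after 3 days in medium with serum and oleic acid, so time in culture and induction cannot be told apart. The study's methods call the 5 libraries of a group biological replicates, but the labels do not say which goat gave which library. The p-values measure the spread between these libraries.

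FOXO proteins bind DNA through a forkhead domain and switch on genes of cell cycle arrest, defence against oxidants, autophagy, protein breakdown and fasting metabolism. Insulin and growth factors restrain them: AKT and SGK kinases phosphorylate FOXO1, FOXO3 and FOXO4, which are then held by 14-3-3 proteins and exported from the nucleus. FOXO1 is known as a brake on early adipocyte differentiation, FOXO3 as a driver of muscle protein loss, FOXO4 as a widely expressed relative, and FOXO6 as a member that responds to insulin without the same export. The mRNA values therefore describe how much message was present, not where the protein was or how active it was.

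The cells were checked against marker genes before the FOXO values were read. The 11 skeletal muscle markers in the table (MYOD1, MYOG, DES, MYLPF and others) summed to 2638 to 3041 FPKM in the IMPA libraries and to 9161 to 9834 FPKM in the IMA libraries, against 6.88 to 20.1 FPKM in SPA and 7.36 to 9.47 FPKM in SA. MYLPF gave the largest part of the sum, at 1061 FPKM in IMPA and 4534 in IMA. From IMPA to IMA, 9 of the 11 rose and 1 fell (limma, adjusted p under 0.05), beside 19.9% and 40.2% of all gene sums. The 1 that fell was MYOD1, from 43.2 to 26.1 FPKM, and PAX7 did not pass (adjusted p = 0.384). The 8 stromal markers (PDGFRA, DCN and others) summed to 840 to 1241 FPKM in the intramuscular and 4661 to 6558 FPKM in the subcutaneous libraries. DCN gave most of this sum, at 660, 535, 5441 and 4120 FPKM in IMPA, IMA, SPA and SA. COL1A1 did not pass in IMPA against SPA (223 and 255 FPKM, limma adjusted p = 0.287). The 5 others tested were lower in IMPA than in SPA and all 6 in IMA than in SA, beside 32.9% and 43.4% of all gene sums. The 9 adipocyte markers in the table summed to 28.0 to 29.4 FPKM in IMPA, 20.6 to 23.4 in IMA, 25.8 to 29.5 in SPA and 23.0 to 25.8 in SA. PPARG, PLIN1, ADIPOQ, LPL and LEP had means under 1 FPKM over the 20 libraries. CEBPA, SCD, AGPAT2 and CIDEC were higher, with means of 5.90, 7.02, 8.001 and 2.41 FPKM, and CEBPA and SCD fell with stage in both depots while AGPAT2 rose in SA. PPARG read 0.624 FPKM in SPA and 1.03 in SA, and 6 of the 9 markers were above 1 FPKM in SA against 4 in SPA. The intramuscular libraries thus carried high levels of muscle cell transcripts, and the marker sum was not higher in IMA or SA than before induction. Lipid content is not in the files used here, and the group names are those of the labels. In bulk RNA, fewer cells of a type and less RNA per cell cannot be told apart. The library IMA1 stood apart from the other IMA libraries: a single lncRNA transcript took 26.9% of its FPKM sum, against at most 22.4% in the other IMA libraries and 26.5% to 28.0% in IMPA. Results that rest on IMA1 are given with and without it.

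FOXO4 was the most abundant FOXO message in subcutaneous cells and lay several-fold lower in intramuscular cells. It read 18.1, 19.7, 18.7, 19.8 and 20.6 FPKM in the 5 SPA libraries and 13.3, 14.4, 13.3, 14.01 and 12.9 FPKM in the SA libraries. In muscle-derived cells it read 5.36, 5.77, 5.77, 4.85 and 5.60 FPKM in IMPA and 5.40, 5.02, 5.14, 5.71 and 5.13 FPKM in IMA. All subcutaneous libraries lay above all intramuscular ones, all SPA libraries lay above all SA libraries, and IMPA and IMA overlapped. By group mean FOXO4 was the highest of the 4 genes in intramuscular cells too, at 5.47 FPKM against 5.08 for FOXO1 in IMPA. In IMA the means were 5.28 and 4.18 FPKM.

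FOXO1 had its highest levels in intramuscular cells and its lowest after induction of subcutaneous cells. The IMPA libraries read 5.10, 5.96, 4.03, 6.996 and 3.33 FPKM, and the IMA libraries read 3.15, 4.58, 4.26, 4.39 and 4.51 FPKM. The SPA libraries read 2.92, 3.33, 3.60, 4.40 and 3.70 FPKM, and the SA libraries read 2.69, 2.19, 1.54, 2.47 and 2.72 FPKM. In the order IMPA, IMA, SPA, SA, each group overlapped its neighbour except SA, which lay wholly below SPA. The spread in IMPA was wide (5.08 ± 1.47 FPKM, SD, n = 5) compared with that of the other groups.

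FOXO3 followed the same order of group means as FOXO1. It read 3.43, 3.73, 3.26, 4.42 and 3.24 FPKM in IMPA and 3.02, 3.69, 3.46, 3.93 and 3.63 FPKM in IMA. It read 1.99, 2.13, 2.57, 3.19 and 2.99 FPKM in SPA and 2.62, 1.82, 1.68, 2.23 and 2.37 FPKM in SA. Every IMPA library lay above every SPA library and every IMA library above every SA library, while the 2 stages overlapped within each depot. FOXO1 and FOXO3 had the same lowest library in 4 of 4 groups (IMPA5, IMA1, SPA1 and SA3) and the same highest library in 2 of 4 (IMPA4 and SPA4). FOXO1 and FOXO4 shared the lowest library in 1 of 4. How often other pairs of genes share such libraries was not counted.

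FOXO6 was close to a presence or absence difference between depots: it was above 0 in 10 of 10 intramuscular libraries and in 3 of 10 subcutaneous ones. Its gene sum was 1.94, 1.95, 1.87, 1.76 and 1.95 FPKM in IMPA and 0.979, 1.68, 1.82, 1.63 and 1.73 FPKM in IMA. It was listed at 0 in SPA1, SPA2 and SPA5 and at 0.0165 and 0.0525 FPKM in SPA3 and SPA4, and at 0 in 4 SA libraries and at 0.0252 FPKM in SA4. The number of fragments behind these values is unknown, so an exact 0 says only that the gene was listed at 0, and no fold is given against the subcutaneous groups. The 2 FOXO6 transcripts were unequal: XM_013962879.2 held 98.1% ± 0.654 (SD, n = 5) of the gene sum in IMPA and 97.4% ± 1.08 in IMA, and this share differed by -0.721 percentage points (two-sided exact permutation p = 0.254). The other transcript, XM_018042598.1, was listed at 0 in all 10 subcutaneous libraries.

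**Figure D1:**
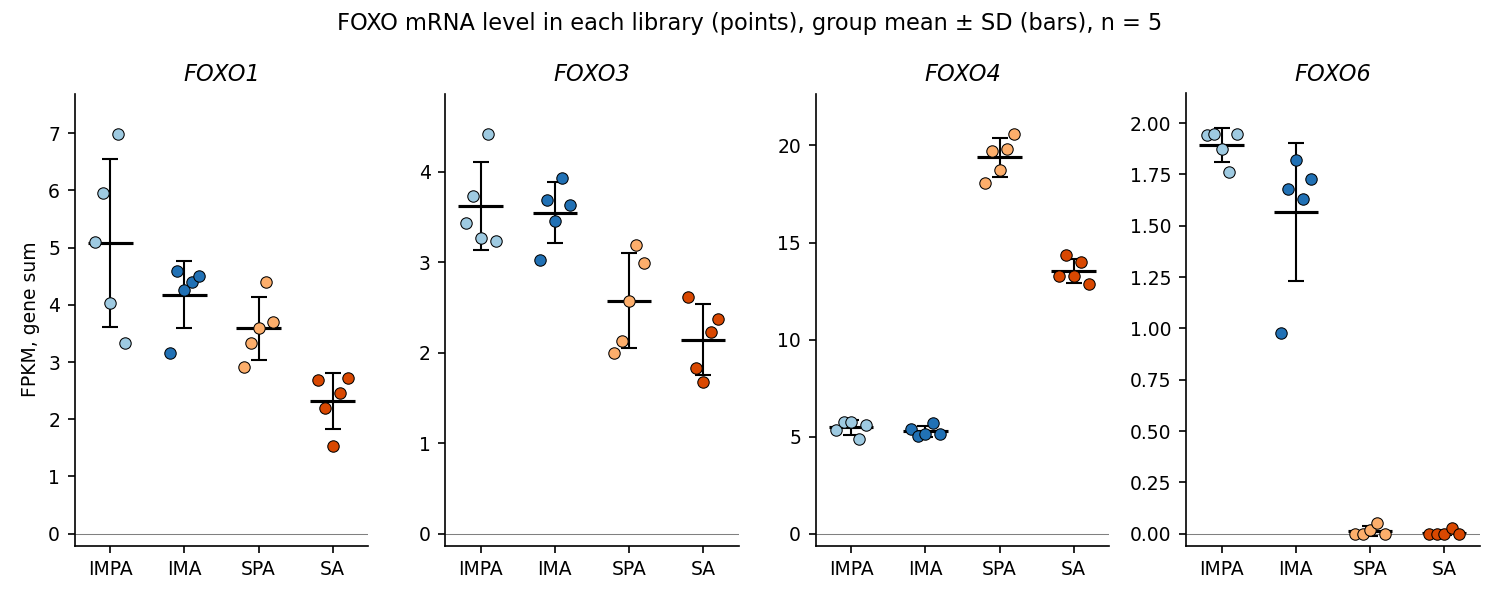
FPKM gene sums of the 4 FOXO genes in each of the 20 libraries, by group, on vertical axes that start at 0 and differ between panels. Points are libraries, horizontal lines are group means and whiskers are ± 1 SD (n = 5). FOXO4 lies at 12.9 to 20.6 FPKM in the subcutaneous and 4.85 to 5.77 FPKM in the intramuscular libraries, and FOXO6 lies at or near 0 in the subcutaneous libraries.

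The make-up of the FOXO message differed between depots. FOXO4 held 76.0% ± 2.64 (SD, n = 5) of the summed FPKM of the 4 genes in SPA and 75.3% ± 3.99 in SA, against 34.4% ± 5.09 in IMPA and 36.4% ± 3.83 in IMA. FOXO1 held 31.2% and 28.6% in IMPA and IMA and 13.99% and 12.8% in SPA and SA. FOXO3 held 22.5% and 24.3% against 10.0% and 11.9% in the same order. FOXO6 held 11.9% and 10.7% in the intramuscular groups and at most 0.191% in any subcutaneous library. The sum of the 4 genes was 16.1 ± 1.64 FPKM in IMPA, 14.6 ± 1.19 in IMA, 25.6 ± 1.87 in SPA and 18.0 ± 0.904 in SA.

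**Figure D2:**
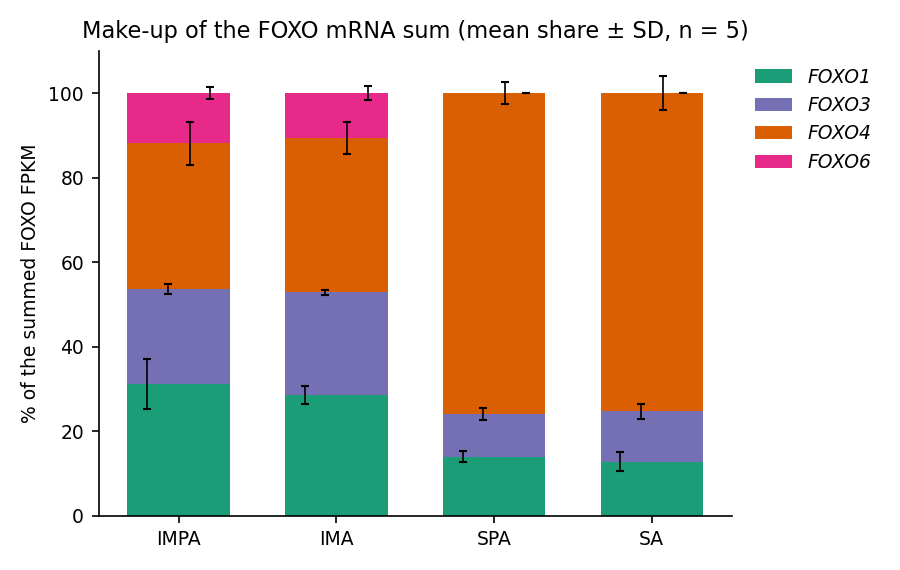
Mean share (%) of each FOXO gene in the summed FPKM of the 4 genes, stacked by group, with whiskers of ± 1 SD (n = 5) drawn at the top of each segment. FOXO4 fills 75.3% to 76.0% of the subcutaneous bars and 34.4% to 36.4% of the intramuscular bars, and FOXO6 is visible in the intramuscular bars alone.

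The first comparison asked how the FOXO genes differed between intramuscular cells before and after induction. None of the 3 members that passed the filter (1 FPKM or more on average in the 20 libraries) was called in IMA against IMPA at an adjusted p under 0.05 by limma, whereas 60.1% of the 11432 gene sums tested were called. The 2 groups overlapped for all 3 members, while 43.5% of gene sums had groups that did not overlap. Log2 fold changes here and below are differences of log2(FPKM + 1), which understate the change of low genes. FOXO1 had a log2 fold change of -0.21 (SE 0.150, adjusted p = 0.256), and single libraries moved it. Without IMPA5, its lowest IMPA library, it was -0.32 (adjusted p = 0.0488), without IMPA4, its highest, -0.10 (adjusted p = 0.553), and without IMA1 -0.13 (adjusted p = 0.491). FOXO3 differed by -0.02 (95% interval -0.19 to 0.15, adjusted p = 0.838) and FOXO4 by -0.04 (95% interval -0.16 to 0.07, adjusted p = 0.518). The signs of the FOXO3 and FOXO4 values turned under other scalings, and that of FOXO3 also without IMA1 (0.02) or IMPA4 (0.04), so neither has a direction here.

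FOXO6 did not pass the filter, since its mean over the 20 libraries was 0.870 FPKM, and it was compared with an exact permutation test in which the smallest p that 5 against 5 libraries can give is 0.00794. In IMA against IMPA it was lower by a log2 difference of -0.18 (two-sided exact permutation p = 0.0159, adjusted p = 0.0212 over the 4 comparisons of FOXO6). The ranges overlapped, and IMA1 held the lowest value. Without IMA1 the difference was -0.09 (exact permutation p = 0.0317). With a filter of 0.1 FPKM, limma gave an adjusted p of 0.0903 for the same difference, and 55.7% of the gene sums tested were called, so the call depended on the test.

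The second comparison put the same question to subcutaneous cells, where FOXO1 and FOXO4 fell. FOXO4 went from 19.4 ± 0.999 FPKM in SPA to 13.6 ± 0.612 FPKM in SA (SD, n = 5), a log2 fold change of -0.49 (SE 0.0444, adjusted p = 2.00e-06) with no overlap between the groups. FOXO1 went from 3.59 ± 0.546 to 2.32 ± 0.485 FPKM, a log2 fold change of -0.47 (SE 0.110, adjusted p = 0.00356), also with no overlap. FOXO3 differed by -0.18 (95% interval -0.42 to 0.06, adjusted p = 0.181), which was within the spread of the libraries. This made 2 of 3 members lower, where 52.1% of all gene sums tested were called, 26.1% as higher and 26.0% as lower, and 38.8% had groups that did not overlap. FOXO6 was at or near 0 in both groups (exact permutation p = 0.722).

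Treated as single transcripts among the 18414 transcripts tested, the FOXO1 transcript XM_018056686.1 had an adjusted p of 0.0231 in SA against SPA, where 25.9% of transcripts were called. That call was lost with housekeeping scaling (log2 fold change -0.36, adjusted p = 0.0752) and without SPA4, SPA5 or SA2 (adjusted p of 0.0539, 0.0519 and 0.0506). Housekeeping scaling divides each library by the mean level of 7 reference genes, which were not steady here. Of the 7, 1 rose and 4 fell in SA against SPA, and 1 rose and 5 fell in IMA against IMPA. Over all gene sums, 26.0% and 40.2% fell in these comparisons. The FOXO4 transcript XM_005700685.3 had an adjusted p of 2.74e-05, and no left-out library ended that call. The 8 proliferation markers, such as TOP2A and RRM2, summed to 47.1 to 54.0 FPKM in SPA and 250 to 281 FPKM in SA. Their level moved with stage in the same libraries, and its part in the FOXO1 and FOXO4 values was not tested.

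Whether the stage difference itself differed between depots was tested with an interaction term over the 20 libraries. It passed for FOXO4, whose log2 fold change was higher by 0.44 in intramuscular than in subcutaneous cells (SE 0.0682, adjusted p = 1.20e-05), in other words the fall seen in SA was not matched in IMA. FOXO1 gave 0.27 (SE 0.197, adjusted p = 0.261) and FOXO3 gave 0.16 (SE 0.139, adjusted p = 0.337). The call in FOXO1 for subcutaneous cells and its absence for intramuscular cells were therefore not shown to differ. This was 1 of 3 members, and 55.3% of the gene sums tested passed the same term, 20.7% with a higher and 34.6% with a lower value in intramuscular cells. For FOXO1 the term passed without IMA1 and IMPA4 together, at 0.45 (adjusted p = 0.0382).

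A call in one member and not in another was checked by testing each pair of members against each other. Of 12 such exact permutation tests (6 pairs in 2 stage comparisons), 3 had an adjusted p of 0.0317, and all 3 were in SA against SPA. All ratios here were taken after adding 1 FPKM to each gene, which shrinks them for low genes. The log2 ratio of FOXO1 to FOXO3 was 0.36 ± 0.0834 in SPA and 0.07 ± 0.0999 in SA (SD, n = 5), so FOXO1 fell relative to FOXO3 by 0.29 on this scale. Leaving out SA1 or SA3 brought the adjusted p of this pair to 0.0635. The other 2 set FOXO1 and FOXO4 against FOXO6, which was near 0 in both groups, and so repeat their falls. They reached the same adjusted p of 0.0635 without SPA4, SA2 or SA3 for FOXO1 and without SA3 for FOXO4. FOXO1 and FOXO4 differed from each other by 0.01 (adjusted p = 0.944), and no pair passed in IMA against IMPA.

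The last 2 comparisons set intramuscular against subcutaneous cells at the same stage. FOXO4 was 3.54-fold higher in SPA than in IMPA (log2 fold change -1.66, SE 0.0511, adjusted p = 1.38e-11) and 2.57-fold higher in SA than in IMA (log2 fold change -1.21, SE 0.0495, adjusted p = 2.33e-11). FOXO3 went the other way, 1.41-fold higher in IMPA than in SPA (log2 fold change 0.38, SE 0.101, adjusted p = 0.00466) and 1.65-fold higher in IMA than in SA (log2 fold change 0.54, SE 0.0864, adjusted p = 6.74e-05). FOXO1 was 1.80-fold higher in IMA than in SA (log2 fold change 0.65, SE 0.109, adjusted p = 1.05e-04). These FOXO3 and FOXO4 differences, and that of FOXO1 between IMA and SA, came with no overlap of the groups.

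FOXO1 in preadipocytes was the weakest of these calls. The ratio of IMPA to SPA was 1.42, with a log2 fold change of 0.38 (SE 0.148, adjusted p = 0.0336) and overlapping libraries. The call was lost when IMPA1, IMPA2, IMPA4, SPA1, SPA2 or SPA3 was left out (log2 fold change 0.27 to 0.38, adjusted p of 0.0537 to 0.0817), under 3 of 4 scalings, and for the single transcript (adjusted p = 0.0808, with 50.9% of transcripts called). All 3 members tested were called in each depot comparison, against a background of 75.1% of gene sums in IMPA against SPA (42.3% higher and 32.9% lower) and 72.4% in IMA against SA (29.0% higher and 43.4% lower). Groups did not overlap for 2 of 3 members in IMPA against SPA and for 3 of 3 in IMA against SA, against 63.4% and 58.6% of all gene sums.

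FOXO6 differed between depots by a log2 difference of 1.51 in preadipocytes and 1.34 in adipocytes. Both gave a two-sided exact permutation p of 0.00794, the smallest that 5 against 5 libraries can give (adjusted p = 0.0159 over its 4 comparisons), and the groups did not overlap. In all, 221 of 20587 symbols were above 0 in all 10 intramuscular libraries and in at most 3 of 10 subcutaneous ones. The limit of 3 is the count of FOXO6 itself. Of the 221, 73 had an intramuscular mean of at least 1 FPKM. FOXO6 ranked 61 of the 73 by level. The list was headed by genes of skeletal muscle, such as MYOG (692 FPKM), the myogenic factor, and CKM (129 FPKM), the muscle creatine kinase. The reverse pattern, with the depots exchanged, held for 24 symbols, and 11 of these had a subcutaneous mean of at least 1 FPKM. The muscle markers moved with depot in every library as FOXO6 did, and their part in the FOXO differences was not tested.

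**Figure D3:**
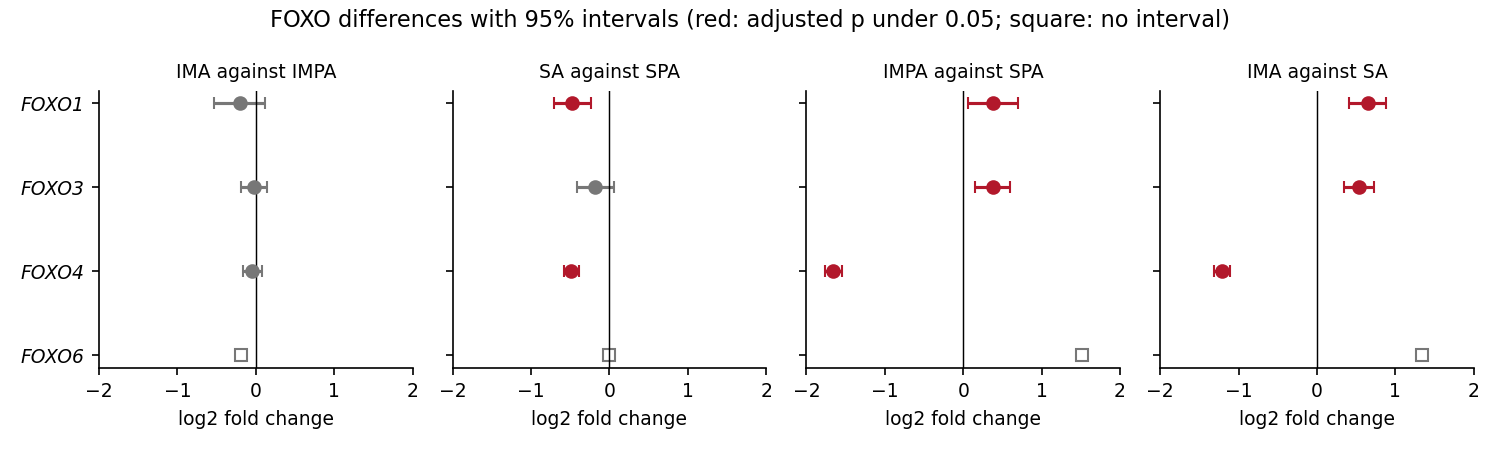
Log2 fold changes of the FOXO genes in the 4 comparisons (horizontal axis, difference of log2(FPKM + 1)), with 95% intervals from limma. Circles are members that passed the filter, in red where the adjusted p is under 0.05, and grey open squares are the log2 differences of FOXO6, drawn without interval or call. FOXO4 is at -1.66 and -1.21 in the depot comparisons, where FOXO1, FOXO3 and FOXO6 are above 0.

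The other forkhead genes gave a view of the family. Of 39 other forkhead symbols in the table, 9 passed the filter. In IMA against IMPA, 1 of the 9 rose and 3 fell, led by FOXS1 (0.95), FOXN3 (-0.50) and FOXK2 (-0.35), all log2 fold changes, beside 19.9% of all gene sums higher and 40.2% lower. In SA against SPA none rose and 4 fell, led by FOXK1 (-0.61), FOXJ3 (-0.35) and FOXP4 (-0.33), beside 26.1% of all gene sums higher and 26.0% lower. Between depots, 4 of the 9 were higher and 3 lower in IMPA than in SPA, beside 42.3% and 32.9% of all gene sums. In IMA against SA, 3 were higher and 3 lower, beside 29.0% and 43.4%. FOXK1, which represses autophagy genes in fed muscle, was lower in IMPA than in SPA by -1.12 (3.71 against 9.25 FPKM) and lower in IMA than in SA by -0.63, as FOXO4 was. FOXS1 went the other way, by 0.90 and 1.94. The median log2 fold change of the 9 was -0.08 and -0.11 in the 2 stage comparisons, where the median of all gene sums was -0.09 and -0.01. With housekeeping scaling, 4 of the 9 rose and 2 fell in IMA against IMPA, 1 rose and 2 fell in SA against SPA, and the FOXP4 call was lost.

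Genes that lie upstream of FOXO proteins carry the insulin signal from receptor to kinase. Of 23 such genes, 22 were in the table and 19 were tested. In IMA against IMPA, 2 rose and 8 fell (median log2 fold change -0.14, against -0.09 for all gene sums). This is 10 of 19 called, near the 60.1% of all gene sums. SGK1, a kinase that phosphorylates FOXO3, fell by 0.68 on the log2 scale, from 25.9 to 15.7 FPKM. AKT1, the main kinase of the route, fell by 0.51, from 67.3 to 47.1 FPKM. PHLPP1, a phosphatase that removes the activating phosphate of AKT, fell by 0.52, and MTOR fell by 0.32, a call that housekeeping scaling ended (adjusted p = 0.0633).

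In SA against SPA, 4 upstream genes rose and 9 fell (median -0.10, against -0.01), where 26.1% of all gene sums rose and 26.0% fell. TRIB3, a pseudokinase that binds AKT, rose by a log2 fold change of 1.04, from 5.11 to 11.5 FPKM. IRS1, the adaptor of the insulin receptor, fell by 0.61, from 5.48 to 3.24 FPKM, and SGK1 fell by 0.61, from 28.6 to 18.5 FPKM. IGF1R fell by 0.43. SGK1 thus fell in both stage comparisons, while AKT1 had a difference between them of -0.62 (interaction, adjusted p = 6.72e-07). With housekeeping scaling the split was 6 higher and 4 lower in IMA against IMPA and 5 and 5 in SA against SPA, so the excess of lower genes depended on the scaling. The reference genes of that scaling mostly fell with stage themselves, so it is not a neutral check.

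Between depots, 7 upstream genes were higher and 8 lower in IMPA than in SPA, and 5 were higher and 9 lower in IMA than in SA. The 15 and 14 of 19 called lie near the 75.1% and 72.4% of all gene sums. PIK3CB, a catalytic subunit of phosphoinositide 3-kinase, was higher in intramuscular cells by a log2 fold change of 1.47 in preadipocytes (3.38 against 0.577 FPKM) and 1.40 in adipocytes. IRS2, the second insulin receptor adaptor, was lower there by -0.90 and -0.75. TRIB3 was higher in IMPA than in SPA by 0.88, and PIK3R1, a regulatory subunit of the same kinase, was lower in IMA than in SA by -1.31 (7.31 against 19.9 FPKM).

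Among 29 partners and modifying enzymes of FOXO proteins, 26 were tested. In IMA against IMPA, 5 rose and 10 fell (median -0.02, against -0.09 for all gene sums), and the 15 of 26 called lie near the 60.1% over all gene sums. YWHAB, a 14-3-3 protein, fell by 0.60 on the log2 scale, from 77.6 to 51.1 FPKM. CREBBP and EP300, which acetylate FOXO proteins, fell by 0.58 and 0.52, and SIRT1, which removes the acetyl groups, fell by 0.51. In SA against SPA, 8 rose and 7 fell (median -0.03, against -0.01), beside 52.1% of all gene sums called. MDM2, a ubiquitin ligase, rose by a log2 fold change of 0.88, and the 14-3-3 genes YWHAH and YWHAQ rose by 0.59 and 0.53, while SMAD3, a transcription partner, fell by 0.62. With housekeeping scaling 13 rose and 4 fell in IMA against IMPA, and 12 rose and 3 fell in SA against SPA, although the genes named here kept their calls and directions.

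SKP2, the ubiquitin ligase subunit that marks FOXO1 for breakdown, had the largest depot difference of the 26 tested. It was 33.4 FPKM in IMPA against 2.95 in SPA (log2 fold change 3.12, adjusted p = 3.31e-13) and 32.9 FPKM in IMA against 3.68 in SA (2.86, adjusted p = 1.37e-13). SETD7, a methyltransferase of FOXO3, was higher in intramuscular cells by 1.04 and 1.34, and SMAD3 was lower there by -1.48 and -0.94. YWHAH was higher in IMPA than in SPA by 1.14. In all, 15 of the 26 were higher and 6 lower in IMPA than in SPA (median 0.20, against 0.05), beside 42.3% of all gene sums higher and 32.9% lower. In IMA against SA, 9 were higher and 10 lower (median -0.00, against -0.09), beside 29.0% and 43.4%.

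**Figure D4:**
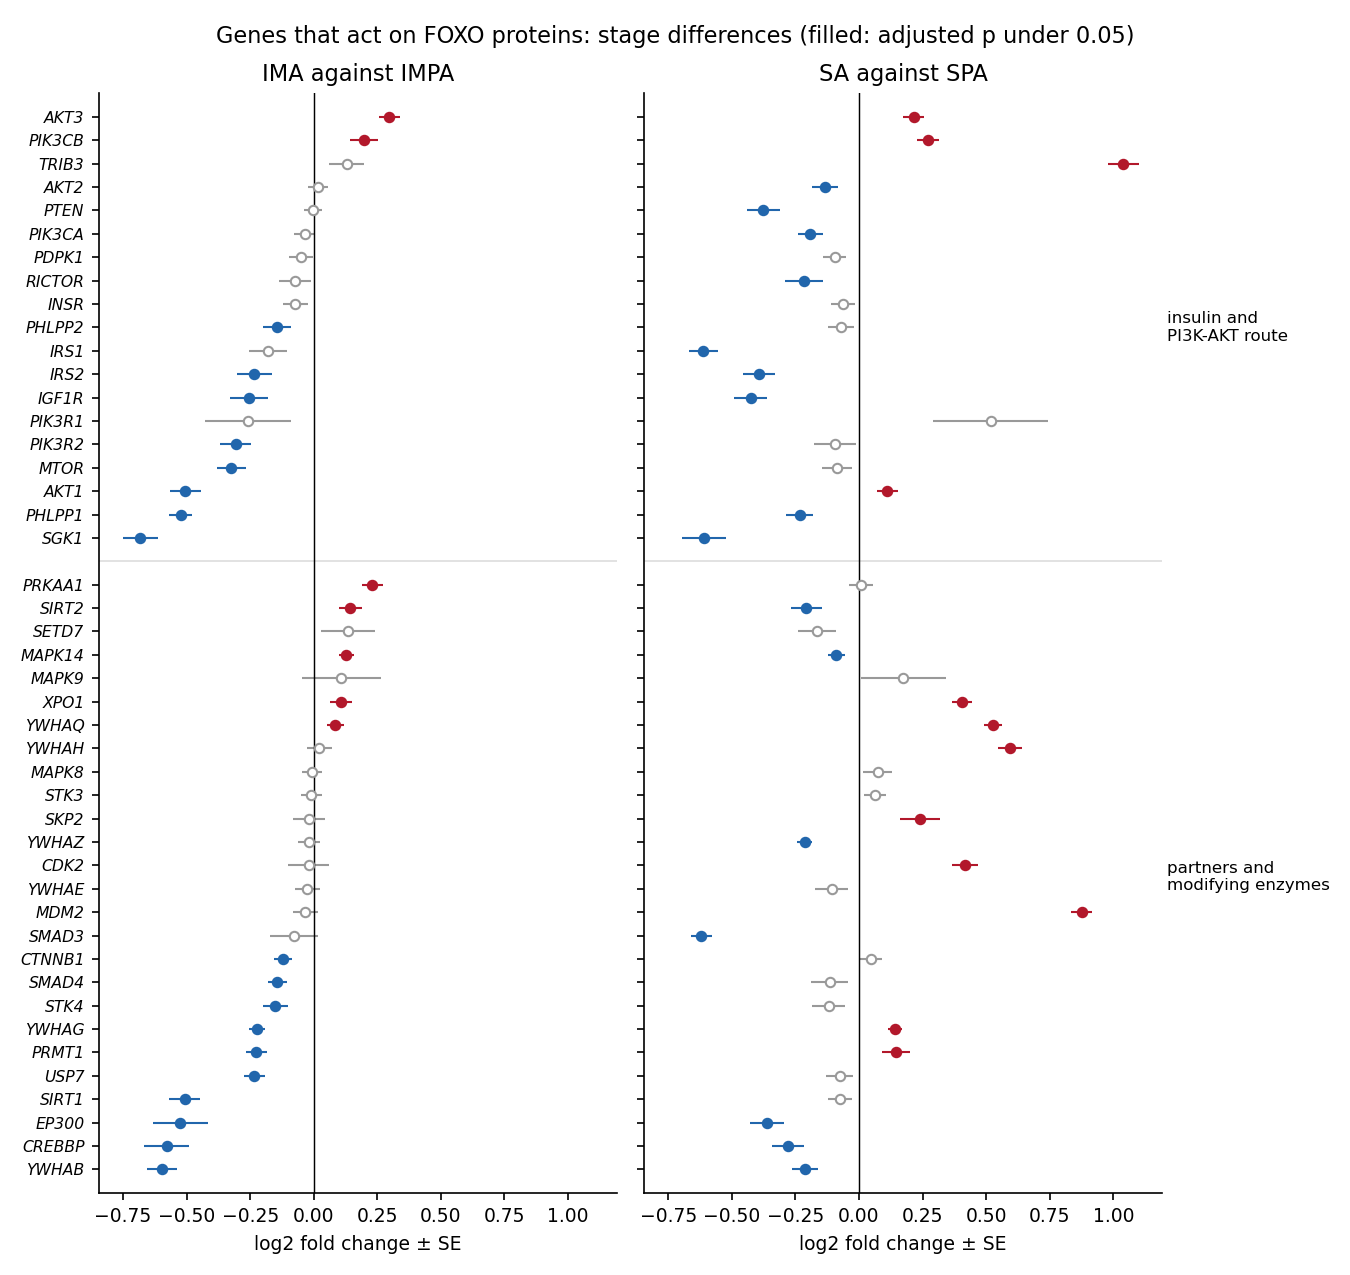
Log2 fold change ± SE (horizontal axis) of the tested genes that act on FOXO proteins, with IMA against IMPA in the left panel and SA against SPA in the right panel. Filled points have an adjusted p under 0.05, red for higher and blue for lower. SGK1 lies on the lower side in both panels, at -0.68 and -0.61, and TRIB3 at 1.04 and MDM2 at 0.88 lead the higher side of the right panel.

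Genes reported as FOXO targets went both ways with stage, and some did not pass the test. Of 48 listed target symbols, 46 were in the table and 37 were tested, the untested ones including PCK1, G6PC and ADIPOQ at low FPKM. SELENOP and SEPP1 are both among the 48 and name the same gene. In IMA against IMPA, 18 rose and 8 fell, with a median log2 fold change of 0.19 against -0.09 for all gene sums. Over all gene sums, 60.1% were called, 19.9% as higher and 40.2% as lower, and 11 of the 37 targets did not pass. Without IMA1, 17 rose and 7 fell, and with housekeeping scaling 22 rose and 5 fell. In SA against SPA, 10 rose and 13 fell (median -0.06, against -0.01), beside 26.1% and 26.0% of all gene sums. That split turned to 15 higher and 7 lower with housekeeping scaling and to 7 higher and 17 lower with equal mRNA sums. The targets are listed from textbook knowledge of other cells, and nothing here measures FOXO binding to them.

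Targets of protein turnover and autophagy held the members best known from muscle wasting. TRIM63 (MuRF1), a muscle ubiquitin ligase, rose from 3.61 to 10.4 FPKM in IMA against IMPA (log2 fold change 1.31, SE 0.0527, adjusted p = 2.22e-09), and it was 0.0201 and 0.0239 FPKM on average in SPA and SA. FBXO32 (atrogin-1), its partner in muscle atrophy, rose from 15.9 to 28.9 FPKM (0.82, SE 0.0520, adjusted p = 1.40e-07). BNIP3, a receptor for removal of mitochondria, rose from 43.1 to 70.5 FPKM in IMA (0.71) and fell from 106 to 51.9 FPKM in SA (-1.02), and this contrast of 1.73 passed the interaction test (adjusted p = 1.30e-09). GABARAPL1, an autophagosome protein, rose by 0.57 in IMA. CTSL, a lysosomal protease, fell from 14.6 to 5.65 FPKM in SA (-1.23). Of the 8 tested, 4 rose and 1 fell in IMA against IMPA, and 2 rose and 4 fell in SA against SPA, where 60.1% and 52.1% of all gene sums were called. The muscle marker sum rose between the same IMPA and IMA libraries, and its part in the TRIM63 and FBXO32 values was not tested.

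Stress defence targets gave 6 higher and 2 lower of 10 in IMA against IMPA, and 3 higher and 4 lower in SA against SPA. Over all gene sums 19.9% rose and 40.2% fell in the first and 26.1% and 26.0% in the second. GADD45A, a DNA damage response gene, rose from 57.9 to 97.8 FPKM in IMA (log2 fold change 0.76) and from 28.3 to 39.2 FPKM in SA (0.45). CAT, the catalase gene, rose from 8.32 to 12.7 FPKM in IMA (0.56). SOD2, the mitochondrial superoxide dismutase, fell from 362 to 153 FPKM in SA (-1.24, adjusted p = 2.11e-10), while its 212 ± 127 FPKM in IMPA and 89.8 ± 11.8 FPKM in IMA (SD, n = 5) differed by -0.85 (SE 0.525, adjusted p = 0.182). SESN2, a stress sensor that dampens mTOR, rose from 4.24 to 10.0 FPKM in SA (1.07) and fell from 9.31 to 7.09 FPKM in IMA (-0.35).

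Cell cycle targets gave 5 higher and 3 lower of 10 in IMA against IMPA, and 3 higher and 1 lower in SA against SPA, beside 60.1% and 52.1% of all gene sums called. CDKN1A (p21), the cell cycle inhibitor, rose from 53.2 to 121 FPKM in IMA (log2 fold change 1.17, adjusted p = 6.33e-09) and from 73.3 to 85.3 FPKM in SA (0.21, adjusted p = 2.17e-04), and the rises differed by 0.95 (interaction, adjusted p = 6.58e-11). CDKN2B, an inhibitor of the G1 kinases, rose by 0.71 and 0.48. It was also far higher in intramuscular cells, at 15.8 FPKM in IMPA against 0.748 in SPA (3.27) and 26.4 FPKM in IMA against 1.44 in SA (3.50). Over the same libraries the proliferation markers summed to 122 to 154 FPKM in IMPA and 112 to 137 FPKM in IMA.

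Metabolic and cell death targets were fewer. PDK4, which blocks entry of pyruvate into the citric acid cycle during fasting, rose from 1.33 to 9.25 FPKM in IMA (log2 fold change 2.15, SE 0.0916, adjusted p = 3.75e-09) and from 3.98 to 9.11 FPKM in SA (1.02, SE 0.0523, adjusted p = 1.01e-08). It rose in both depots, and by more in the intramuscular one (difference 1.13, adjusted p = 1.52e-08). NAMPT rose by 0.29 in IMA, and 2 of the 4 metabolic genes tested were called there, beside 60.1% of all gene sums. PMAIP1 (Noxa), a cell death gene, rose from 17.6 to 44.0 FPKM in IMA (1.27). BCL6, a repressor induced by FOXO proteins, fell from 32.2 to 19.7 FPKM in SA (-0.69). Of the 5 cell death targets tested, 1 rose and 2 fell in IMA against IMPA, and 1 rose and 3 fell in SA against SPA, beside 60.1% and 52.1% of all gene sums called.

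**Figure D5:**
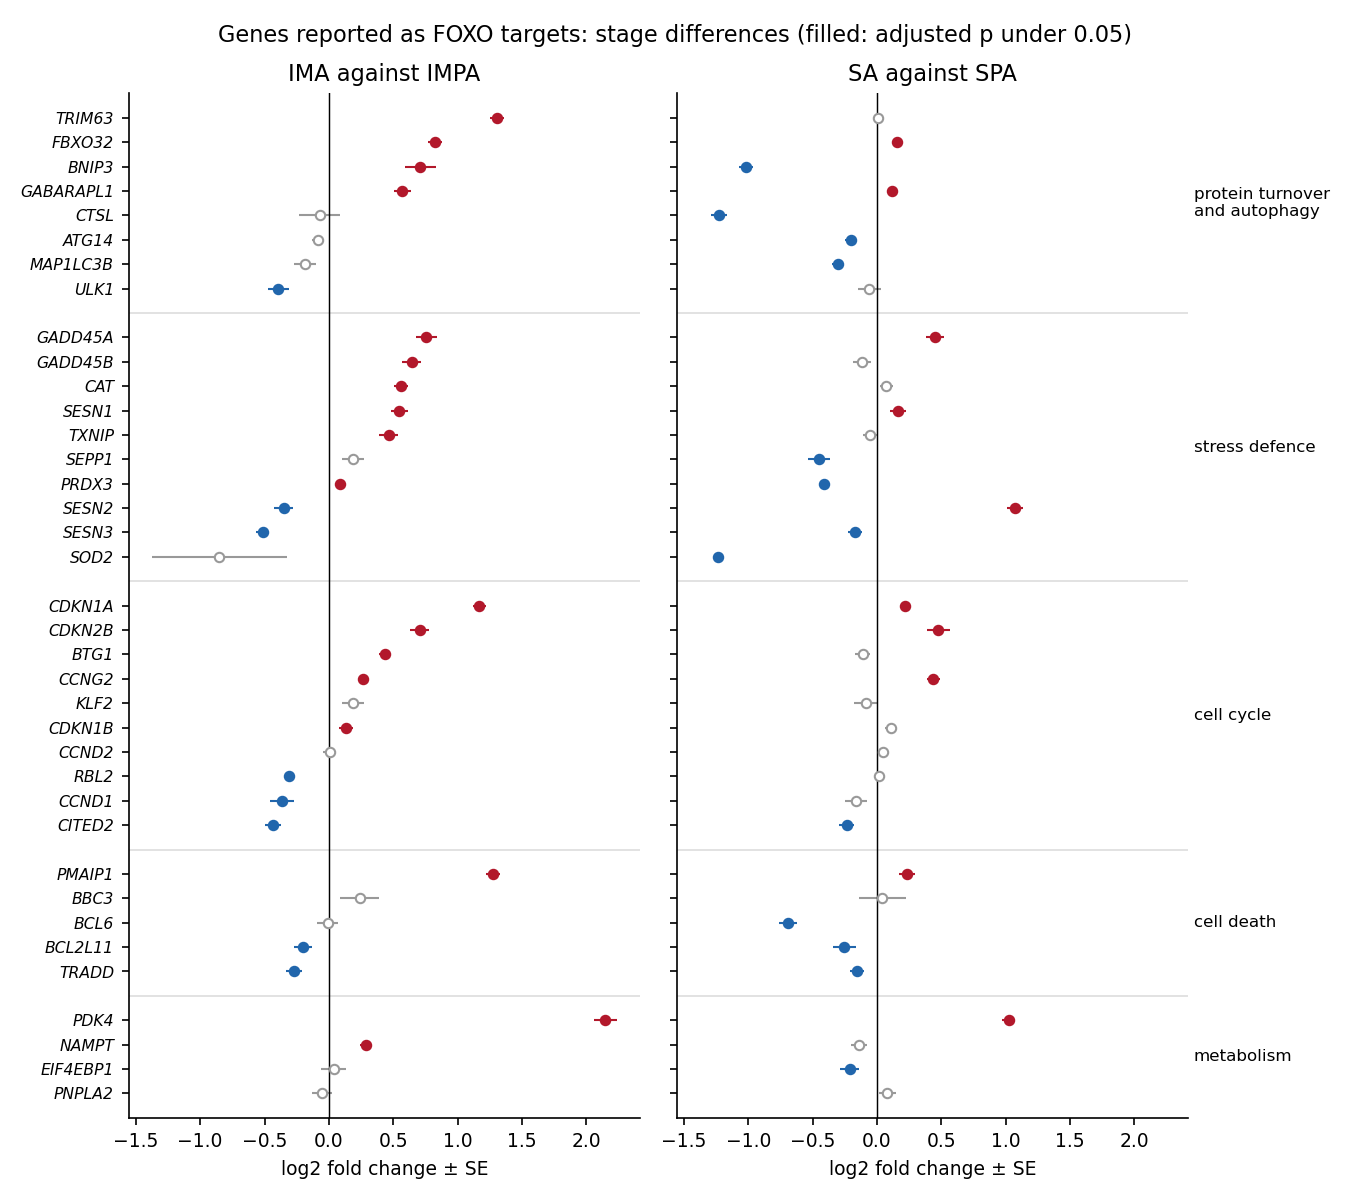
Log2 fold change ± SE (horizontal axis) of the 37 tested genes reported as FOXO targets, by role, with IMA against IMPA in the left panel and SA against SPA in the right panel. Filled points have an adjusted p under 0.05, red for higher and blue for lower. PDK4 leads the left panel at 2.15 with TRIM63 at 1.31, and SOD2 and CTSL lie at -1.24 and -1.23 in the right panel.

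The genes with profiles most like each member were found by the root mean square difference of log2(FPKM + 1), each centred on its mean, over the 20 libraries. For FOXO4 these were RSPO3 (0.0993), IL13RA1 (0.114) and RSPO1 (0.125), where the median over the other 11431 symbols was 0.754. RSPO1 and RSPO3 encode R-spondins, secreted amplifiers of WNT signalling, and IL13RA1 read 111 FPKM in SPA, 74.99 in SA and 37.0 and 36.4 in IMPA and IMA. For FOXO1 they were ENG (0.142), HIVEP2 (0.150) and CAMSAP2 (0.165), against a median of 0.451. For FOXO3 they were AFF1 (0.107), FBXO30 (0.117) and AKT2 (0.119), against a median of 0.370, and AKT2, a FOXO kinase, read 8.15, 8.26, 6.02 and 5.40 FPKM in IMPA, IMA, SPA and SA. For FOXO6 they were TAGLN (0.107), FIGN (0.114) and TIAM2 (0.118), against a median of 0.762 over 11432 symbols. TAGLN, a smooth muscle actin-binding protein, read 493 and 423 FPKM in IMPA and IMA and 164 and 159 FPKM in SPA and SA. FOXO6 averaged 1.89 and 1.57 FPKM in IMPA and IMA and 0.0138 and 0.00504 FPKM in SPA and SA. The likeness thus lies in the steps on the log2(FPKM + 1) scale, not in the level or the fold change. On this scale the added 1 shrinks the steps of low genes.

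The genes next to each member in the RefSeq goat assembly ARS1.2 differed in whether they moved with it. Calls were common: 75.1% of all gene sums in IMPA against SPA and 72.4% in IMA against SA. With stage, 60.1% were called in IMA against IMPA and 52.1% in SA against SPA. SCMH1, beside FOXO6, was higher in IMPA than in SPA (log2 fold change 0.71, adjusted p = 7.84e-07) and in IMA than in SA (0.73, adjusted p = 4.57e-07). It was detected in all groups, at 6.28, 5.04, 3.45 and 2.63 FPKM in IMPA, IMA, SPA and SA, and differed with stage by -0.27 in IMA and -0.29 in SA. SNX12, beside FOXO4, was lower in IMPA than in SPA by -0.33 and in IMA than in SA by -0.40. It fell in both stage comparisons, by 0.28 in IMA and 0.22 in SA on the log2 scale. ARMC2, beside FOXO3, gave no call in any of the 4 comparisons, and LACE1 on its other side was called in SA against SPA alone (0.15, adjusted p = 0.0362). MRPS31, beside FOXO1, was higher in IMPA than in SPA by 0.60 and in IMA than in SA by 0.56, whereas COG6 on the other side was lower, by -0.12 (adjusted p = 0.0415) and -0.24 (adjusted p = 3.55e-04). With stage, MRPS31 was called in IMA against IMPA (-0.21, adjusted p = 0.0237) and COG6 in SA against SPA (0.14, adjusted p = 0.0320). CXHXorf65 and EDN2, the other neighbours of FOXO4 and FOXO6, were under the filter.

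FOXO6 had been paired by the study with 19 lncRNAs on the basis of co-expression in these same libraries, so their depot pattern is not independent evidence. In 14 of the 19 every intramuscular library lay above every subcutaneous one, in 5 the reverse held, and none overlapped. The share of all lncRNA transcripts with such a pattern was not counted, so these numbers have no background here. XR_001917557.1, the most abundant of the first kind in IMPA, averaged 23.8 FPKM in IMPA, 19.4 in IMA, 0.0132 in SPA and 0.00147 in SA. XR_001917649.1 was listed at 0 in all intramuscular libraries and averaged 2.53 FPKM in SPA and 3.03 in SA. Of 8 that passed the filter, 4 were called in IMA against IMPA, 2 higher and 2 lower, beside 25.2% of the 1708 lncRNA transcripts tested.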

How the data were processed

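Analyses used 20 strand-specific RNA-seq libraries. According to the methods and labels, the authors aligned reads to the goat genome with HISAT2 (2.0.4) and computed transcript FPKM with StringTie (1.3.1). The submitters' processing notes also name GATK (2.6-5), with no role given. The deposited values are FPKM per transcript in tables of mRNAs and lncRNAs, with no counts, so the depth behind each value is unknown and no counting interval is given. Values of low genes were not whole multiples of a fixed unit. FPKM sums per library were 527426 to 596669, and 15126 to 16961 symbols were above 0. The share of mapped reads reported for the libraries was higher in every preadipocyte than in every adipocyte library of the same depot. It was also higher in every intramuscular than in every subcutaneous library of the same stage. Mapping can therefore not be told apart from stage or from depot.

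FPKM were summed per symbol. Symbols with a mean of at least 1 FPKM (11432) were tested on log2(FPKM + 1) with limma (3.58.1, R 4.3.3), a moderated linear model with a variance trend, in 10 libraries per comparison and with an interaction over all 20. P-values were adjusted by Benjamini-Hochberg over all features tested, and calls had an adjusted p under 0.05. The fitting code was tested on simulated data. FOXO6 failed the filter, so its values were compared by a two-sided exact permutation of the libraries (252 divisions, Python 3.11.15 with scipy 1.17.1). This replaced the planned test after the data were seen. Pairs of members were compared with the same exact test.

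The members and gene lists were chosen with earlier results of these data known. Genes named in the text are all members, the 3 nearest profiles of each, and up to 4 called genes per list and comparison with the largest absolute log2 fold change (3 for other forkhead genes), taken for all targets and for each role. Neighbouring genes, marker examples, single lncRNAs and the values of a named gene in its other comparisons fall outside this rule, with their values known. Alternatives included another pseudocount, other filters, 4 scalings, no variance trend, a replicate block, all groups in a fit, and leaving out libraries. The authors' build is an earlier version of the RefSeq goat assembly at hand, which was used for names and neighbours only, so no coordinates are given. FABP4, MYH3 and SGK3 were not analysed here, and SELENOP was analysed only under its older symbol SEPP1.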

Additional observations from a re-analysis of the deposited data

Results flagged for a closer look

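In a group of 5 libraries, a value was marked when its gap to the nearest other library exceeded 0.71 of the range of the group. This held in 3 of 16 groups of FOXO values, and the count is not compared with chance. FOXO1 in IMA was 3.15 FPKM in IMA1, against 4.26 to 4.58 FPKM in the other libraries. FOXO6 in IMA was 0.979 FPKM, also in IMA1, against 1.63 to 1.82 FPKM. FOXO6 in SA was 0.0252 FPKM in SA4 and listed at 0 in the other libraries. With every other value at 0, any value above 0 is marked by this rule. The stage change of FOXO4 differed between depots by 0.44 on the log2 scale (interaction in limma, adjusted p = 1.20e-05), with no overlap of SPA and SA and overlap of IMPA and IMA.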

How the results depend on the processing

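FPKM without counts limit what can be said of FOXO6 in subcutaneous cells. The gene sum calls of FOXO4 and FOXO3 between depots, of FOXO1 between IMA and SA, of FOXO1 and FOXO4 gene sums in SA against SPA, and of the FOXO4 interaction kept direction and significance in every setting run, although the FOXO3 transcript lost its call in IMPA against SPA with quantile normalization (0.28, adjusted p = 0.0646). Counts of gene sums called stayed within 1.5 times, but scaling moved their split. Housekeeping scaling, which like the joint omission of IMA1 and IMPA4 was chosen after seeing the data, moved the median of all gene sums in IMA against IMPA from -0.09 to 0.08 and in SA against SPA from -0.01 to 0.12. It changed the genes higher and lower from 2276 and 4591 to 4472 and 2007, and from 2982 and 2975 to 5024 and 1340. Most of its 7 reference genes fell with stage, and dividing by them raises the values of other genes. YWHAZ was both a reference gene and a tested partner of FOXO proteins. Equal mRNA sums gave 2327 and 4052 in SA against SPA, and quantile normalization gave 4046 and 4665 in IMPA against SPA (4831 and 3757 as deposited) and 3027 and 3221 for the interaction (2368 and 3951 as deposited).

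In IMA against IMPA, FOXO3 turned to 0.01 (upper quartile), 0.04 (quantile), 0.13 (housekeeping) and 0.08 (without IMA1 and IMPA4), and FOXO4 to 0.02 (quantile) and 0.12 (housekeeping). The FOXO3 transcript turned to 0.03, 0.02, 0.13 and 0.08 in the same order, and the FOXO4 transcript to 0.02 (upper quartile), 0.02 (quantile) and 0.12 (housekeeping). FOXO1 in IMPA against SPA lost its call at 0.38 (no filter), 0.34 (upper quartile), 0.36 (equal sums), 0.27 (quantile), 0.33 (without SPA1 and SA5) and 0.27 (without IMA1 and IMPA4), the last of which also gave the FOXO1 interaction a call at 0.45. FOXO6 in IMA against IMPA lost its call at -0.06 (housekeeping, exact permutation p = 0.968) and, in limma, at -0.18 with the 0.1 FPKM filter or none. With a pseudocount of 0.1, FOXO1 against FOXO6 turned to 0.05 in IMA against IMPA, FOXO1 against FOXO4 to -0.11 in SA against SPA, and FOXO4 against FOXO6 kept -0.41 without a call. The causes were not tested.

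Leaving out 1 library at a time gave -0.32 to -0.10 for FOXO1, -0.05 to 0.04 for FOXO3 and its transcript and -0.22 to -0.09 for FOXO6 in IMA against IMPA, 0.27 to 0.49 for FOXO1 and its transcript in IMPA against SPA, and -0.02 to 0.00 for FOXO6 in SA against SPA. The FOXO1 transcript in SA against SPA ranged from -0.53 to -0.38. For pairs, the range was -0.14 to 0.10 (FOXO1 against FOXO6) and -0.02 to 0.12 (FOXO3 against FOXO4) in IMA against IMPA. In SA against SPA it was -0.32 to -0.25 (FOXO1 against FOXO3), -0.05 to 0.10 (FOXO1 against FOXO4), -0.51 to -0.37 (FOXO1 against FOXO6) and -0.50 to -0.45 (FOXO4 against FOXO6).

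Replicate numbers recur across groups, but same-numbered libraries correlated above 0.1 in at most 2 of 5 pairs, and 3, 1, 2 and 0 of 5 libraries correlated best with their own number in the 4 comparisons, so the numbers were not taken as pairs. With the replicate block, 6826, 5602, 8530 and 8059 gene sums were called and 6304 for the interaction, and limma calls of the FOXO gene sums did not change. For the exact tests the block allows no p below 0.0625, so FOXO6 (-0.18, 1.51 and 1.34) and the pairs (-0.29, -0.46 and -0.47) could not pass. The FOXO1 transcript in SA against SPA had an adjusted p of 0.065.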
